A study of Mus musculus with 48 samples.

Results

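Fabp7 (brain fatty acid-binding protein) and 8 other genes of astrocytes and radial-glia-like cells were followed in the mouse pars tuberalis over the day and across photoperiods. The genes were chosen by name (Fabp7, Gfap, Gjb6, Gja1, Slc1a3, Slc1a2, Aqp4, Aldh1l1 and Vim), and each was read from 1 probe set, selected on its mean level over all 48 arrays. They are 9 of the 18194 genes measured. Fabp7 was singled out for its daily course, so that course is described without a test.

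The pars tuberalis is the thin part of the anterior pituitary that wraps the median eminence. It reads the length of the night through melatonin and, in long days, releases thyrotropin, which acts on tanycytes, the radial-glia-like cells that line the third ventricle above it. Astrocytes and tanycytes share much of their gene expression. They take up glutamate, carry water and ions, are joined by gap junctions and hold a scaffold of intermediate filaments. Fabp7 carries long-chain fatty acids inside radial glia and astrocytes, its mRNA is known to cycle over the day in mouse brain, and the clock repressor REV-ERB alpha, made by Nr1d1, is a known regulator of it.

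All mice were male CBA/N, kept first for 3 weeks under short days of 8 h of light. One set stayed under short days and another was moved to long days of 16 h of light for 2 weeks; both were sampled at an age of 8 weeks. The other sets were sampled on the first long day, at 6 weeks, with 8 h of light added either in front of the usual day (advance, lights on at ZT16 of the short-day cycle) or behind it (delay). ZT is the time in hours after lights on, counted from the short-day lights-on in the first-day sets, and each set was sampled at 6 times 4 h apart. Every array holds RNA pooled from 25 mice, taken with a 0.5 mm needle from frozen slices. There were 2 arrays for each of the 24 groups, 12 arrays a condition. The series text says that the whole procedure was repeated, and nothing more is said of how separate the repeats were, so p-values measure the spread between these arrays.

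Markers of several cell types besides the thyrotrophs of the pars tuberalis were read in the punched tissue. All 5 measured thyrotroph markers lay above the 25th percentile of probe set levels. So did all 23 other astrocyte genes, all 19 radial glia and tanycyte genes, all 10 ependymal and all 9 neuron markers. That cut is a low one, with only 3052 of the 18194 genes below it, so passing it does not show which cells were present. Over the 12 arrays of a condition the mean log2 level of the neuron markers ran from 10.77 to 11.22 in short days, 10.72 to 10.98 in long days, 10.50 to 10.84 in advance and 10.57 to 10.91 in delay. That of the ependymal markers ran from 8.07 to 8.52, 7.82 to 8.09, 8.05 to 8.40 and 7.90 to 8.54. Growth hormone or prolactin mRNA, from the neighbouring pars distalis, was above a log2 level of 10 on 1 short-day, 3 long-day, 1 advance and 1 delay array. The signal at the 3′ end of actin mRNA over that at its 5′ end, a sign of RNA quality, was 1.89 ± 0.12 (log2, SD, n = 12) in short days, 1.65 ± 0.12 in long days, 1.69 ± 0.09 in advance and 1.85 ± 0.13 in delay. The second arrays of long-day ZT16 and ZT20 stood apart from their partners in the phase of 15 clock genes, at -4.25 and -11.75 h relative to short days where the long-day median was -8.12 h. In such bulk tissue, fewer cells of a type and less RNA per cell cannot be told apart, and the part of tissue mix and RNA quality in the results was not tested.

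Fabp7 lies on chromosome 10 of the mouse build GRCm38.p6, at 57784923 to 57788450 on the plus strand, 1395 kb from Gja1 (56377300 to 56390419). Gfap lies on chromosome 11 (102887336 to 102897200), Gjb6 on chromosome 14 (57123301 to 57133611) and Slc1a3 on chromosome 15 (8634124 to 8710807). The 250 bases before the start of Fabp7, chr10:57784673-57784922 in RefSeq, are shown because they hold 1 copy of the core letters of REV-ERB and ROR sites. The copy is given in capitals, and its first base lies 171 bases before the start. Only the core was searched, not the letters beside it, so a match does not mark a site of these proteins. Stretches of 30 bases around the same letters are shown for Gfap (chr11:102897268-102897297, minus strand) and Aldh1l1 (chr6:90550603-90550632, plus strand), for comparison.
Fabp7: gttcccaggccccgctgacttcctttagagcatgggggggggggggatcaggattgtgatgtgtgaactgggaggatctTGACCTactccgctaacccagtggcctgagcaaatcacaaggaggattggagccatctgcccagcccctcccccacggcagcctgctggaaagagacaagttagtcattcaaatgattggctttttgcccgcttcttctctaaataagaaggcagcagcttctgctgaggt
Gfap: ctctgggtacagTGACCTcagtggggtgag
Aldh1l1: caaatggacggaTGACCTgagcttggttct
The motif was searched as AGGTCA on both strands, and TGACCT is its reverse complement. It was found in 4 of the 8 members with a RefSeq promoter window of 300 bases (250 before and 50 after the start), against 16.3% of all 32851 windows. The fourth was Slc1a2, whose window (chr2:102706188-102706487) lies inside its listed span, which begins at 102658239. That match is therefore not at the listed start of the gene. The E-box CACGTG, present in 7.2% of all windows, and the D-box TTATGTAA, present in 0.9%, were not in the 8 windows. Gjb6, Gja1, Slc1a3 and Vim held none of these letters in their windows, and no window was used for Aqp4. A match is a description of the sequence only.

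Fabp7 had a wide daily course in all 4 conditions, with 1.90- to 2.26-fold between its highest and lowest group means, and the hours of those means differed between conditions. In short days its log2 level on the replicate arrays was 10.43 and 10.37 at ZT0, 10.70 and 10.47 at ZT4, 10.28 and 9.91 at ZT8, 9.50 and 9.50 at ZT12, 9.80 and 9.74 at ZT16, and 10.24 and 10.31 at ZT20. The low point came 4 h after lights off, and the level was climbing again before lights on. In long days it was 9.96 and 9.95 at ZT0, 10.64 and 10.76 at ZT4, 10.53 and 10.60 at ZT8, 10.25 and 10.12 at ZT12, 9.71 and 9.60 at ZT16, and 9.30 and 9.76 at ZT20. Here Fabp7 was still low at lights on and lowest in the dark, and the arrays of the 3 times from ZT4 to ZT12 all lay above those of ZT0, ZT16 and ZT20.

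On the advance day Fabp7 was 9.63 and 9.65 at ZT16, when the lights came on, 10.32 and 10.23 at ZT20, 10.49 and 10.44 at ZT0, 10.26 and 10.29 at ZT4, 9.78 and 9.83 at ZT8 and 9.42 and 9.28 at ZT12. On the delay day it was 10.21 and 9.90 at ZT0, 10.30 and 10.40 at ZT4, 10.17 and 9.95 at ZT8, 9.59 and 9.66 at ZT12, 9.50 and 9.34 at ZT16 and 9.96 and 9.75 at ZT20. Both first-day courses had their low point in what had been the dark of the short-day cycle, at ZT12 in advance and at ZT16 in delay.

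**Figure D1:**
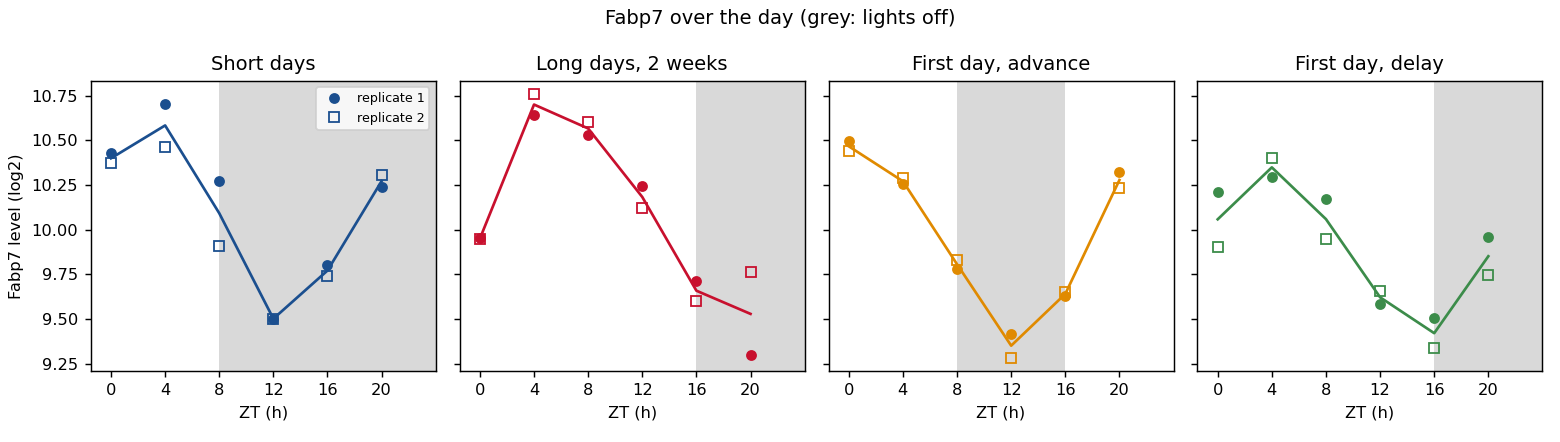
Fabp7 level (log2, vertical axis) by ZT (hours, horizontal axis) in 4 panels, 1 per condition, with filled circles for replicate 1, open squares for replicate 2, a line through the group means and grey where lights were off. The highest group mean was at ZT4 in short days, long days and delay and at ZT0 in advance, and the lowest was at ZT12, ZT20, ZT16 and ZT12.

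The range from the lowest to the highest of the 6 group means of Fabp7 was 1.08 in short days (2.12-fold), 1.17 in long days (2.26-fold), 1.12 in advance (2.17-fold) and 0.93 in delay (1.90-fold). Only 59, 47, 67 and 83 of the 18194 genes had a wider range in short days, long days, advance and delay, where the median gene had ranges of 0.27, 0.21, 0.23 and 0.22. The spread between replicate arrays was small beside this, with a median SD of a pair of 0.05 in short days, 0.08 in long days, 0.04 in advance and 0.13 in delay. Gfap had a range of 1.05 in short days, close to that of Fabp7, but its replicate arrays lay further apart, with a median SD of 0.23.

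A 24 h cosine fitted to the 12 arrays of a condition gave Fabp7 an amplitude of 0.50 in short days, 0.61 in long days, 0.56 in advance and 0.42 in delay (log2, from the middle to the top of the fitted curve). The fitted peak was at ZT1.43 in short days, ZT6.49 in long days, ZT0.32 in advance and ZT3.40 in delay. The sample titles give the hour of sampling in all conditions but advance, and lights came on at hour 7 in short days and hour 3 in long days. By that hour the peaks were at 8.43 in short days, 9.49 in long days and 10.4 in delay. The replicates fitted alone gave hours 9.06 and 7.75 in short days, 9.89 and 9.04 in long days and 9.90 and 10.88 in delay, so the short-day and long-day ranges overlapped. Counted from lights on, the peak of Fabp7 was 5.06 h later in long than in short days, and counted by the hour of sampling it was 1.06 h later.

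Nr1d1 lay further apart by the hour of sampling, with its long-day peak 4.10 h later than its short-day peak. Its fitted peak was at hour 8.20 in short days, 12.3 in long days and 12.56 in delay, and at ZT2.40 in advance. Nr1d2, which makes the related repressor REV-ERB beta, peaked at hours 12.48, 16.03 and 15.98 in short days, long days and delay, and at ZT6.06 in advance. Without the long-day ZT16 and ZT20 second arrays the long-day peaks were at hour 9.57 for Fabp7, 12.65 for Nr1d1 and 15.66 for Nr1d2. The fitted peaks of Fabp7 and Nr1d1 were 0.23 h apart in short days, while Fabp7 came first by 2.81 h in long days, 2.16 h in delay and 2.08 h in advance. No test was made of the difference between the peak times of these genes. In delay the 15 clock genes lay behind short days even ahead of the extra light, by offsets of -4.25 and -3.25 h at ZT0. The part of the added light in the later delay peaks was not tested.

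**Figure D2:**
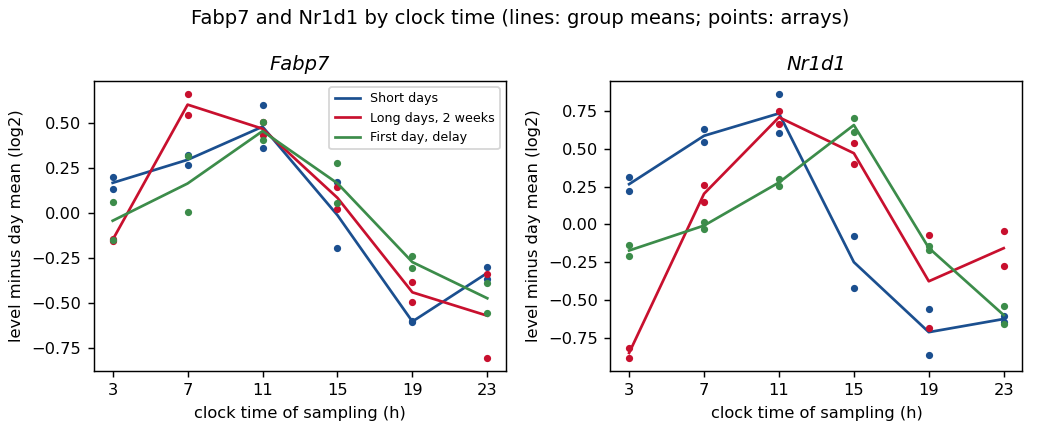
Level less the condition's day mean (log2, vertical axis) of Fabp7 (left) and Nr1d1 (right) by hour of sampling (horizontal axis) in short days, long days and delay, with lines through group means and points for arrays. Fitted peaks of Fabp7 lie between hours 8.43 and 10.4, and those of Nr1d1 run from hour 8.20 in short days to 12.3 in long days and 12.56 in delay.

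Among all genes, the 24 group means of Txnrd3 (a thioredoxin reductase) ran most like those of Fabp7, with a Pearson correlation of 0.89 over the 24 groups. Sat2 (an acetyltransferase) followed at 0.87, Tril (a Toll-like receptor accessory protein) at 0.86, and Lars (a leucyl-tRNA synthetase) and Spon1 (the matrix protein spondin 1) at 0.85. With each condition's mean taken off, so that only the daily course counts, the nearest were Srsf6 (a splicing factor) at 0.93, Sat2 and Txnrd3 at 0.91, and Hnrnpdl (an RNA-binding protein) and Lrrc4c at 0.90. Nr1d1 reached 0.72 on the group means and 0.78 on the daily course. Of the 8 other astrocyte genes, Vim was closest, at 0.58 and 0.65, and Aldh1l1 ran the other way, at -0.09 and -0.34. These are descriptions over 24 groups, which share the array platform and, within a condition, the lighting.

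The other 8 genes showed little daily change that passed the test. In short days 2 of the 8 passed limma's F test over the 6 times at an adjusted p of 0.05, against 8.91% of all genes. Vim, the intermediate filament of radial glia and tanycytes, had a range of 0.52 (adjusted p = 0.001575) and Slc1a2, the glutamate transporter GLT-1, one of 0.57 (adjusted p = 0.03249). Vim was 11.94 and 12.13 at ZT0, 12.13 and 12.05 at ZT4, 11.83 and 11.71 at ZT8, 11.63 and 11.52 at ZT12, 11.65 and 11.68 at ZT16 and 11.81 and 11.84 at ZT20. Its arrays of ZT0 and ZT4 lay above all others, and its low point at ZT12 was also that of Fabp7. Slc1a3 did not pass on its selected probe set, but did on that of mean level 7.31 (range 1.02, adjusted p = 0.0003214, limma). Slc1a2 was lowest at ZT0, at 10.68 and 10.61, and highest at ZT8, at 11.41 and 11.02. The Slc1a2 call was lost without either short-day array of ZT0 (adjusted p = 0.07956 and 0.1756), without the first of ZT4 (0.05926) or of ZT8 (0.08272), and without the arrays high in growth hormone or prolactin (0.07864). With all probe sets fitted in limma, the selected one was at 0.05007. The Slc1a2 probe set of mean level 6.61 passed there (adjusted p = 0.04062). Those of 10.75 (0.431), 7.15 (0.1094) and 4.57 (0.6648) did not.

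In long days 0 of the 8 passed, where 1.63% of all genes did, and in advance 0 of the 8, where 2.58% did. In limma's test 1705 genes in long days and 2199 in advance had an unadjusted p below 0.05. Leaving out the second long-day arrays of ZT16 and ZT20 made 3 of the 8 pass in long days: Gjb6 (range 0.71, adjusted p = 0.006414), Slc1a2 (0.62, 0.02843) and Aqp4 (0.49, 0.02265). On the delay day 1 of the 8 passed, against 1.52% of all genes, and it was Gjb6, which makes the gap junction protein connexin 30 (range 0.64, adjusted p = 0.006649). Gjb6 stood at 10.96 and 11.20 at ZT0 and 11.16 and 11.05 at ZT4, dropped to 10.35 and 10.58 at ZT8 and 10.38 and 10.59 at ZT12, and was 11.17 and 10.88 at ZT16 and 10.94 and 10.88 at ZT20. The 4 arrays of ZT8 and ZT12 lay below the other 8.

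The daily course differed between long and short days for 1 of the 8 genes, against 4.30% of all genes. Vim differed by up to 0.71 between its highest and lowest long-minus-short difference (adjusted p = 0.004886, limma F test of the interaction). Its long-day group means stayed within 0.26, from 11.55 at ZT20 to 11.81 at ZT12, where its short-day mean was lowest. The call was lost when the times were matched by hour of sampling (adjusted p = 0.1999) and with the arrays high in growth hormone or prolactin left out (0.06876). Slc1a3 differed on its probe set of mean level 7.31 (1.13, adjusted p = 0.008786, limma) and not on the selected one. Fabp7, given as a value only, had a spread of 1.43 in these differences, and Nr1d1 one of 2.62 (adjusted p = 2.379e-11, limma) and Nr1d2 one of 1.79 (adjusted p = 2.695e-08, limma).

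After 2 weeks of long days the astrocyte genes had parted in their day means, with 3 higher, 3 lower and 3 that did not pass. Passing genes were common in this comparison, at 46.7% of all genes (3200 higher and 5303 lower). The 6 of 9 and the counts of other lists below are to be read against that. The median change of the 9 was -0.01 against -0.03 over all genes. Fabp7 had the same day mean in both photoperiods, 10.10 ± 0.40 (log2, SD, n = 12) in short and 10.10 ± 0.47 in long days. Its change was -0.01 ± 0.05 (SE, adjusted p = 0.945, limma), with long days higher at 3 of the 6 times.

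**Figure D3:**
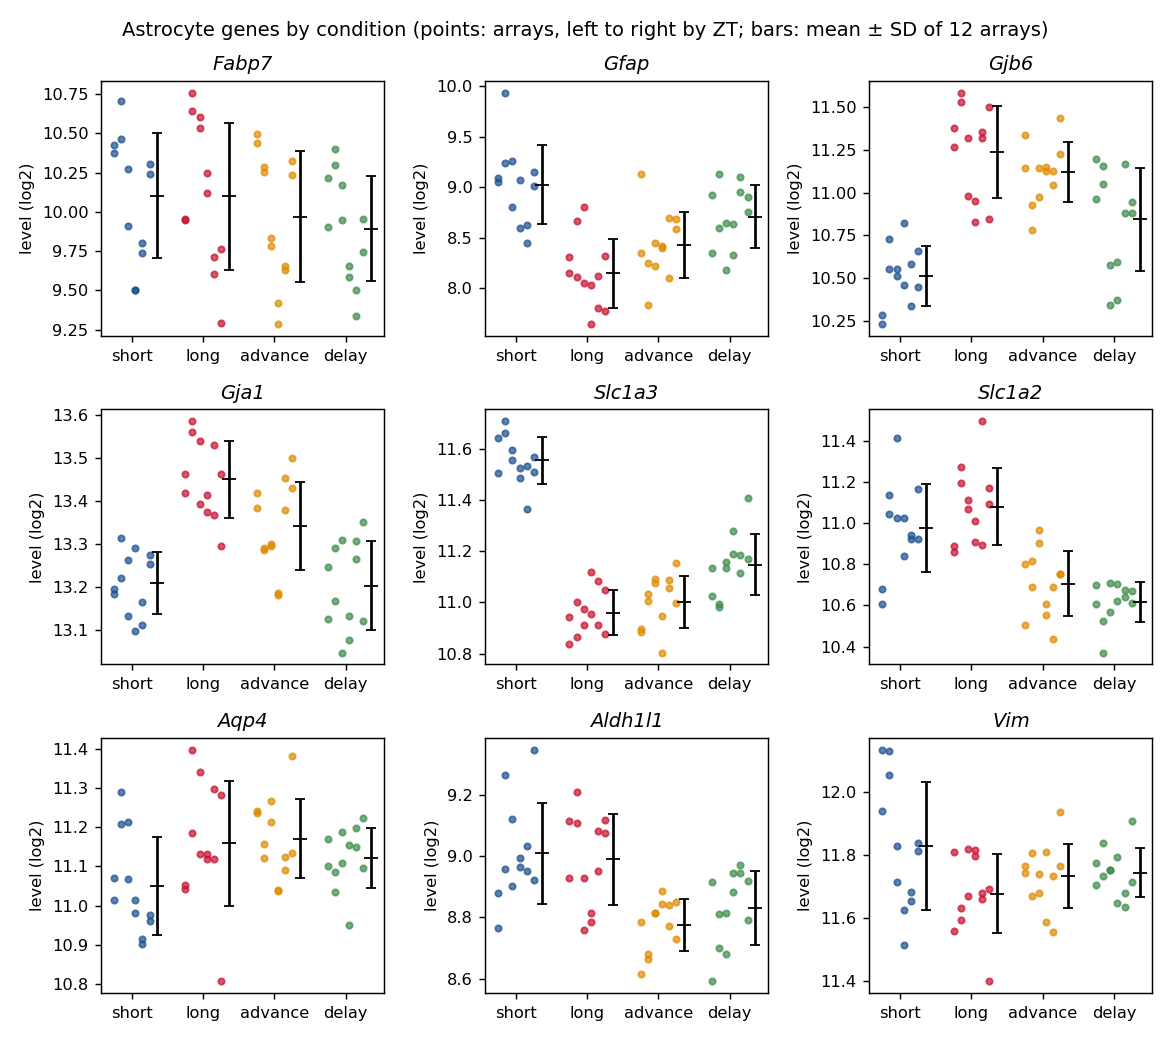
Level (log2, vertical axis) of each of the 9 genes in the 12 arrays of short days, long days, advance and delay (horizontal axis), with points placed left to right by ZT and bars for the mean ± SD. Long-day points of Gjb6 all lie above, and those of Slc1a3 all below, the short-day points, while those of Fabp7 overlap.

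The gap junction genes were higher in long days. Gjb6 ranged from 10.23 to 10.82 in short days, with a median of 10.53, and from 10.83 to 11.58 in long days, with a median of 11.32. No long-day array overlapped the short-day arrays. How many of all genes part in this way, here or in the comparisons below, was not counted. The change of Gjb6 was 0.72 ± 0.06 (1.65-fold, adjusted p = 7.897e-12, limma). Gja1, which makes connexin 43, the main astrocyte gap junction protein, ranged from 13.10 to 13.31 in short days (median 13.21) and from 13.30 to 13.59 in long days (median 13.44). It was higher in long days at 6 of 6 times although the lowest long-day array reached into the short-day range, and its change was 0.24 ± 0.03 (1.18-fold, adjusted p = 4.198e-07, limma). Of the 8 other connexins measured, 2 rose and 1 fell, where 46.7% of all genes passed. Gjc3, of oligodendrocytes, rose by 0.47 and Gjb2, the usual partner of Gjb6, by 0.29, while Gjc1 fell by 0.22.

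Of the glutamate transporters, Slc1a3 was lower and Slc1a2 did not pass. Slc1a3, which makes GLAST, the transporter of radial glia and astrocytes, ranged from 11.37 to 11.71 in short days (median 11.55) and from 10.84 to 11.12 in long days (median 10.95). The arrays did not overlap, with no count of such genes over all genes, and the change was -0.60 ± 0.04 (1.51-fold lower, adjusted p = 2.211e-15, limma). Slc1a2 ranged from 10.61 to 11.41 in short days (median 10.98) and from 10.86 to 11.50 in long days (median 11.08), and its change of 0.10 ± 0.05 missed the threshold (adjusted p = 0.1016, limma). It passed with array medians set equal, at 0.18 (adjusted p = 0.008047), and without the first short-day array of ZT8 (0.02651) or the second long-day array of ZT16 (0.004497), and without the 2 long-day arrays that stood apart, at 0.15 (0.009374). Of 8 other genes of glutamate transport and glutamine synthesis, Glul, the glutamine synthetase of astrocytes, rose by 0.26 and Slc1a6, a transporter of neurons, fell by 0.21.

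The filament genes were lower in long days. Gfap, the filament protein of mature astrocytes, ranged from 8.45 to 9.94 in short days (median 9.07) and from 7.64 to 8.80 in long days (median 8.12). The arrays overlapped, but long days were lower at 6 of 6 times, and the change was -0.88 ± 0.11 (1.84-fold lower, adjusted p = 4.715e-08, limma). Vim ranged from 11.52 to 12.13 in short days (median 11.82) and from 11.40 to 11.82 in long days (median 11.68), lower at 4 of 6 times, with a change of -0.15 ± 0.04 (adjusted p = 0.001735, limma). The Vim call was lost with array medians set equal, at -0.08 (adjusted p = 0.107), and with the actin measure as a covariate, at -0.06 (adjusted p = 0.445). Of 10 other intermediate filament genes 5 fell and 0 rose, among them Synm, a filament partner of vimentin and GFAP, by 0.64, and the nuclear lamin Lmna by 0.45. That count is near the share over all genes, of which 46.7% passed, 5303 lower and 3200 higher.

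Aqp4, the water channel of astrocyte endfeet, was higher by 0.11 ± 0.04 (adjusted p = 0.03114, limma), at 6 of 6 times, with ranges of 10.90 to 11.29 in short and 10.81 to 11.40 in long days. That call was lost without any 1 of 7 arrays: the first of short-day ZT0 (adjusted p = 0.05173), the second of short-day ZT4 (0.0541) and ZT8 (0.0664), the second of long-day ZT4 (0.08442), ZT8 (0.08403) and ZT20 (0.1236), and the first of long-day ZT16 (0.07623). It was also lost on repeated quantile normalization (0.05224), with the actin covariate (0.05708), without the arrays high in growth hormone or prolactin (0.09167) and without the 2 long-day arrays that stood apart (0.06308). Aldh1l1, a folate enzyme used as a pan-astrocyte marker, had day means of 9.01 ± 0.16 and 8.99 ± 0.15 (SD, n = 12) and a change of -0.02 ± 0.05 (adjusted p = 0.78, limma).

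**Figure D4:**
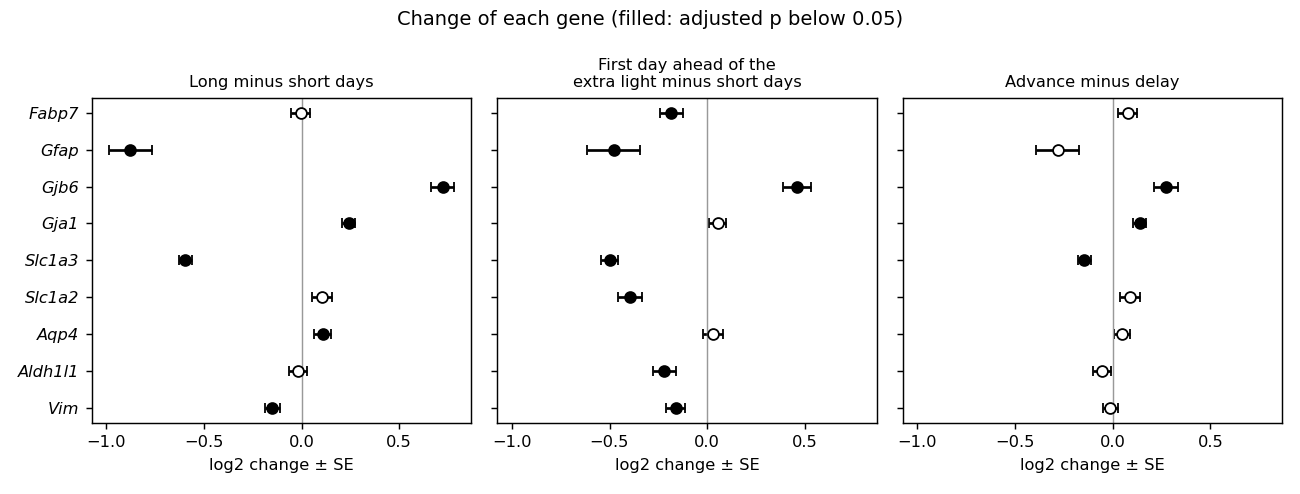
Log2 change ± SE (horizontal axis) of the 9 genes (vertical axis) in long minus short days, in the first day ahead of the extra light minus short days, and in advance minus delay, with filled points for an adjusted p below 0.05. Gjb6 lies to the right of 0 and Slc1a3 to the left in all 3 panels (in advance minus delay, 4 of 5 other Slc1a3 probe sets lie to the right), and Fabp7 lies at -0.01 in the first and -0.19 in the second.

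The wider lists of glial genes split in the same comparison. Of 23 other astrocyte genes 6 rose and 9 fell, with a median of -0.08. Sox9, a transcription factor of astrocytes, rose by 0.44, Bmpr1b, a receptor for bone morphogenetic proteins, by 0.40 and the phospholipase Pla2g7 by 0.36, while Mfge8, a secreted bridge protein of phagocytosis, fell by 0.40. Of 19 radial glia and tanycyte genes 6 rose and 8 fell: Frzb, a secreted Wnt inhibitor, rose by 0.48, and Rax, the homeobox gene of tanycytes, fell by 0.58, as did the Notch targets Hes5 by 0.69 and Hes1 by 0.33. Of 12 genes of the family of Fabp7, 1 rose and 3 fell: the retinoic acid carrier Crabp2 by 0.61, and, downward, Fabp5 by 0.24, Fabp3 by 0.20 and Fabp9 by 0.14. Of that family, 6 of the 12 lay below the 25th percentile of probe set levels. Markers of other cells moved too: of 10 ependymal markers 0 rose and 6 fell, of 9 neuron markers 2 rose and 4 fell, and of 9 oligodendrocyte markers 4 rose and 1 fell. All these counts stand beside 46.7% of all genes, 3200 higher and 5303 lower.

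Other probe sets of the same genes gave changes of other sizes, and in Gfap, Slc1a3 and Slc1a2 some of another sign. The choice of probe set by mean level was close in some: for Slc1a3 the selected mean was 11.17 and the next 11.14, for Slc1a2 10.84 and 10.75, for Gfap 8.58 and 8.38. Fabp7 and Gjb6 have 1 probe set each. All 5 other probe sets of Gja1 were higher in long days, by 0.21 to 0.91. For Slc1a3, 4 of 5 others were at -0.38 to -0.20, and the probe set of mean level 9.96 was at 0.04. For Gfap, the probe set of mean level 8.38 was at -0.52 and the dimmest, of mean level 6.86, at 0.04. For Aqp4, the probe set of mean level 9.17 was at 0.53 (adjusted p = 2.245e-07, limma) and the dimmest at 0.05, beside 0.11 on the selected one. For Slc1a2, the probe set of mean level 7.15 was at 0.28 (adjusted p = 2.081e-05, limma) and the other 3 were at -0.04 to 0.09, none of which passed.

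**Figure D5:**
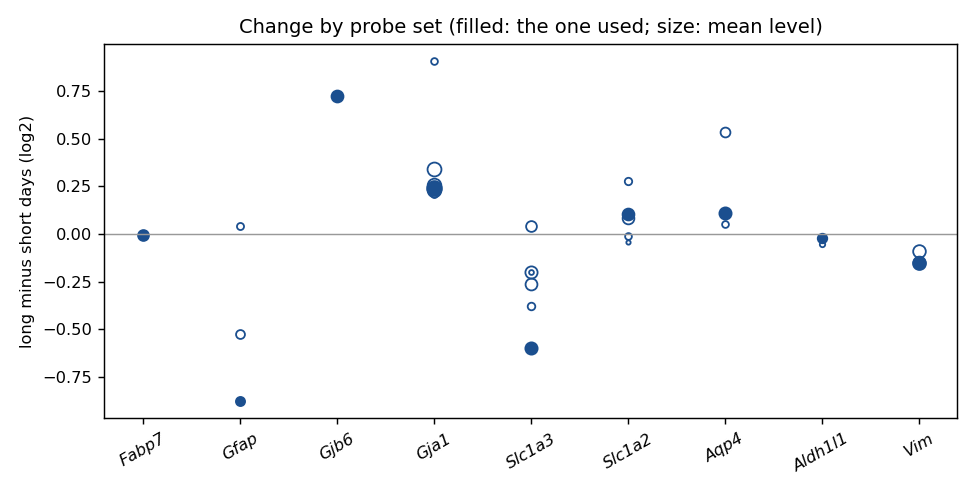
Change from short to long days (log2, vertical axis) for each of the 30 probe sets of the 9 genes (horizontal axis), filled for the one used and sized by mean level. Those of Gja1 all lie above 0 and those of Vim and Aldh1l1 all below, while Gfap, Slc1a3 and Slc1a2 have points on both sides.

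On the first long day 7 of the 9 genes already differed from short days at the times sampled ahead of any extra light (advance ZT16 and delay ZT0, ZT4 and ZT8). Over all genes 48.8% passed here, and these mice were 6 weeks old and the short-day mice 8 weeks, so age, the set of mice and the condition cannot be told apart. This comparison and the long-day one share short-day arrays. Gjb6 was higher by 0.46 ± 0.07 (adjusted p = 3.609e-06, limma), and 6 were lower, with a median over the 9 of -0.19 against 0.01 over all genes. Slc1a3 fell by 0.50 on the log2 scale (SE 0.04, adjusted p = 6.743e-11, limma): it was 11.09 and 11.06 at advance ZT16, 11.13 and 11.02 at delay ZT0, 10.983 and 10.995 at ZT4 and 11.13 and 11.16 at ZT8, all below every short-day array. All 5 other Slc1a3 probe sets were lower as well, at -1.20 to -0.22.

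Slc1a2 fell by 0.40 (SE 0.06, adjusted p = 4.149e-06, limma), Gfap by 0.48 (SE 0.14, adjusted p = 0.003802), Aldh1l1 by 0.22 (SE 0.06, adjusted p = 0.002016) and Vim by 0.16 (SE 0.05, adjusted p = 0.005789). The Vim call was lost on repeated quantile normalization, at -0.05 (adjusted p = 0.3835). The direction turned on other probe sets for Slc1a2 (0.05 on 1 of 4), Gfap (0.19 on 1 of 2) and Aldh1l1 (0.08 on the other). Gja1 was at 0.05 ± 0.04 and Aqp4 at 0.03 ± 0.05, and neither passed, but both did on repeated quantile normalization, at 0.19 (adjusted p = 6.933e-05) and 0.12 (0.0425). On other probe sets Gja1 passed at 0.13 (adjusted p = 0.04627, limma) and 0.12 (0.0166), and the rest, at 0.09 to 0.11, did not. Aqp4 passed on that of mean level 6.64 (0.26, adjusted p = 0.002256) and was at -0.18 on that of 9.17 (0.08962). Fabp7 fell by 0.19 (SE 0.06, adjusted p = 0.00967, limma): the group means were 9.64 against 9.77 at ZT16, 10.06 against 10.40 at ZT0, 10.35 against 10.58 at ZT4 and 10.06 against 10.09 at ZT8. That call was lost without the first short-day array of ZT8 (adjusted p = 0.05207), on repeated quantile normalization (-0.10, 0.1488), with the actin covariate (-0.13, 0.07) and without the arrays high in growth hormone or prolactin (-0.15, 0.06217). At these times the 15 clock genes lay behind short days in phase. The offsets in delay were -4.25 and -3.25 h at ZT0, -5.0 and -4.75 h at ZT4 and -2.25 and -2.5 h at ZT8. At advance ZT16 they were -1.25 and -1.25 h. A comparison at equal ZT can thus mix daily phase with level, and the part of phase was not tested.

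The other astrocyte genes were mostly lower there, where 48.8% of all genes passed, 3961 higher and 4911 lower. Of the 23 other astrocyte genes 15 fell and 3 rose, with a median of -0.29: the neurotensin receptor Ntsr2 fell by 0.76, the sodium pump subunit Atp1b2 by 0.48, Ttyh1 by 0.43 and the endfoot membrane protein Mlc1 by 0.42. Of the 19 radial glia and tanycyte genes 4 rose and 8 fell, with a median of -0.04. Markers of other cells moved as well: of the 9 neuron markers 0 rose and 5 fell, of the 10 ependymal markers 0 rose and 6 fell, of the 9 oligodendrocyte markers 4 rose and 3 fell, and of the 9 microglia markers 0 rose and 2 fell. Of the 5 thyrotroph markers 4 rose and 0 fell, with a median of 0.57, and of the 9 pars distalis markers 4 rose and 0 fell, with a median of 0.43. The part of these cells in the changes of the 9 genes was not tested. Of the 8 other connexins 3 rose and 0 fell: Gjb2 by 0.56, Gjb5 by 0.32 and Gjb1 by 0.21. The fatty acid carriers Fabp5 and Fabp3 fell by 0.35 and 0.37.

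Advance and delay, both at 6 weeks and on a first long day, differed in 3 of the 9 genes, against 24.1% of all genes. Over the day Gjb6 was higher in advance by 0.27 ± 0.06 (adjusted p = 0.0008819, limma), at 5 of 6 times, and Gja1 by 0.14 ± 0.03 (adjusted p = 0.003027), at 6 of 6. Gjb6 ranged from 10.78 to 11.44 in advance (median 11.14) and from 10.35 to 11.20 in delay (median 10.91), so the arrays overlapped. The 5 other Gja1 probe sets were higher in advance by 0.11 to 0.65, but the Gja1 call was lost on repeated quantile normalization, at 0.05 (adjusted p = 0.215). Slc1a3 was lower in advance, at -0.15 ± 0.04 (adjusted p = 0.002055, and 0.08037 with the actin covariate), but 4 of its 5 other probe sets turned the direction, at 0.07, 0.16, 0.18 and 0.92, so the gene's direction rests on the probe set. Gfap was at -0.28 ± 0.11 (adjusted p = 0.05963, and 0.01888 to 0.1615 on leaving out single arrays) and Fabp7 at 0.08 ± 0.05 (adjusted p = 0.2686). Genes that did not pass on the selected probe set passed on another in limma. These were Slc1a2 (0.39, adjusted p = 0.0004897), Aqp4 (0.28, 0.00321) and Gfap (-0.34, 0.01792). The remaining probe sets of these genes did not pass. Of the 8 other connexins 3 were higher in advance and 0 lower, with Gjc3 higher by 0.28 and Gjb2 by 0.21, and Slc38a3, a glutamine transporter of astrocytes, was higher by 0.36.

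Few of these genes passed in the comparisons of the hours of extra light, and the advance light after its first 4 h was not compared in this way. Over the first 4 h of advance light, from ZT16 to ZT20, 0 of the 9 changed more than over the same hours of short days, where 0.22% of all genes (40) passed and 1128 had an unadjusted p below 0.05 in limma. Estimates ran from -0.31 for Gfap to 0.15 for Gjb6, and Fabp7 was at 0.14 ± 0.17. The SE ran from 0.12 for Gja1 to 0.38 for Gfap. A change has to exceed its SE by a wide margin to pass, so changes larger than these could also be missed. In the evening light of delay (ZT12 and ZT16 against ZT0 to ZT8, relative to short days) 1 of the 9 passed, against 6.11% of all genes. For Slc1a3 the change from day to evening was higher in delay than in short days by 0.25 ± 0.08 (adjusted p = 0.04624, limma). Its level was lower in delay, at 11.23 and 11.15 at ZT12 and ZT16 against 11.51 and 11.45 in short days. The call was lost on leaving out any of 25 of the 48 arrays (adjusted p of up to 0.1117). The direction turned on the probe set of mean level 9.96, at -0.42. Vim was at 0.28 ± 0.09 (adjusted p = 0.05128, and 0.02698 to 0.11 on leaving out single arrays), Gfap at 0.66 ± 0.25 (adjusted p = 0.08524) and Fabp7 at 0.09 ± 0.11 (adjusted p = 0.6243). Vim itself did not rise in delay, where its group means from ZT0 to ZT16 were 11.74, 11.785, 11.751, 11.72 and 11.657. In short days they fell from 12.036 at ZT0 and 12.091 at ZT4 to 11.57 at ZT12 and 11.667 at ZT16. For the clock gene Nr1d2 the change from day to evening was higher in delay than in short days by 0.61 ± 0.12 (adjusted p = 0.007029, limma). Its group means in delay were 12.048, 12.329 and 12.728 from ZT0 to ZT8, then 12.675 and 12.09. In short days they were 12.191, 12.764 and 12.531, then 12.127 and 11.67. At delay ZT0 to ZT8, ahead of the extra light, the 15 clock genes had offsets of -5.0 to -2.25 h. The part of phase in these values was not tested.

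Across the 4 conditions the genes fell into different orders. Day means of Gjb6 were 10.52 in short days, 10.85 in delay, 11.12 in advance and 11.24 in long days, and neighbours in that order overlapped in their arrays. Those of Slc1a3 ran the other way from 11.56 in short days through 11.15 in delay and 11.002 in advance to 10.96 in long days; the short-day arrays lay above all of advance and of long days. That order is of the selected probe set: on 4 of the 5 others advance lay above delay, and on that of mean level 9.96 long days lay 0.04 above short days. Slc1a2 and Aldh1l1 shared a further order, with both chronic conditions above both first-day ones: 11.08 in long days, 10.98 in short days, 10.71 in advance and 10.62 in delay for Slc1a2, and 9.01 in short days, 8.99 in long days, 8.83 in delay and 8.78 in advance for Aldh1l1. The chronic sets were 8 weeks old and the first-day sets 6 weeks, so age and condition cannot be told apart in this order. It is also of the selected probe sets. Ahead of the extra light, the Slc1a2 probe set of mean level 4.57 was at 0.05 and the other Aldh1l1 one at 0.08, relative to short days. Delay and long days did not overlap in Slc1a2, again with no count of such genes over all genes. Fabp7 had day means of 10.10, 10.10, 9.97 and 9.89 in short days, long days, advance and delay, each with an SD between 0.34 and 0.47, most of it its daily course. Over the 24 groups, on the selected probe sets, Slc1a3 and Gjb6 had a Pearson correlation of -0.81, which was -0.31 with each condition's mean taken off. Gja1 and Gjb6 had one of 0.79, and 0.59 with the means taken off, and Aldh1l1 and Slc1a2 had 0.71 and 0.47.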

How the data were processed

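RNA of 48 pools was read on Affymetrix arrays of 45101 probe sets. The deposited values are log2 probe set summaries made by the authors with RMA in R 2.8.0, per the submitters' processing notes. Probe sets with 1 gene symbol (34958; 932 had several and 9211 none) were named from the platform annotation, of which 34754 matched RefSeq (GRCm38.p6), and each gene took its probe set of highest mean, 18194 genes in all. No filter on dim genes was used. Group means of 24 groups were fitted with limma 3.58.1 in R 4.3.3 (24 residual degrees of freedom, eBayes with trend), two-sided, with Benjamini-Hochberg adjustment over all genes at 0.05. The fit was tested on simulated data. The members and gene lists were chosen with earlier results of these data known. From each list, up to 4 genes of smallest p are named, besides the members, Nr1d1, Nr1d2 and the 5 genes most like Fabp7 by each measure. The number of arrays limits the precision. Array medians lay between 6.975 and 7.026.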

Additional observations from a re-analysis of the deposited data

Results flagged for a closer look

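The daily course of Vim differed between long and short days, by 0.71 between the highest and the lowest of the 6 long-minus-short differences (adjusted p = 0.004886, limma interaction test). The courses of Nr1d1 and Nr1d2 also differed between these conditions, by 2.62 and 1.79. The change of Slc1a3 from day to evening differed between delay and short days by 0.25 (adjusted p = 0.04624, limma), and that of Nr1d2 by 0.61. Each was picked out by the test of the difference between the conditions. Groups of 2 arrays are too small for a test of outlying arrays.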

How the results depend on the processing

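Counts of genes that passed are over the 9 genes, or over the 8 without Fabp7 in tests of daily course. In the evening light of delay the count of 1 became 0 with array medians set equal, repeated quantile normalization, no trend in eBayes, the actin covariate, all probe sets fitted, or the arrays high in growth hormone or prolactin left out, and 2 with dim genes left out, the 2 long-day arrays left out, or either replicate block. The difference in daily course went from 1 to 2 with the replicate block within each condition or without the 2 long-day arrays, and to 0 matched by hour of sampling or without the hormone-rich arrays. Daily variation in short days went from 2 to 1 without the hormone-rich arrays or with all probe sets fitted, and to 3 with the actin covariate (Gfap, 1.01, adjusted p = 0.03057) or without the 2 long-day arrays (Aqp4, 0.34, adjusted p = 0.03886); in long days it went from 0 to 3 without the 2 long-day arrays. Leaving out 1 array at a time gave 5 to 7 in long minus short days, 1 to 3 in daily variation of short days and 0 to 2 of long days, 1 to 2 in course, 0 to 3 in evening light, 6 to 7 on the first day and 3 to 4 in advance minus delay. The cause was not tested.

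Other probe sets reversed Gfap (0.041) and Slc1a3 (0.040) in long minus short days, Slc1a3 in evening light (-0.419) and in advance minus delay (0.157, 0.177, 0.918 and 0.074), and, on the first day, Gfap (0.186), Slc1a2 (0.052) and Aldh1l1 (0.075). The Fabp7 amplitude was 0.66 in long days without the 2 arrays and 0.43 in delay on replicate 2 alone. Fabp7 has no other probe set.

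Over all genes, the calls went from 8503 to 5006 (long minus short) and from 4382 to 1896 (advance minus delay) with the actin covariate. Across alternatives and single arrays left out they ran from 901 to 2838 (main 1621), 105 to 439 (296), 320 to 736 (470) and 172 to 497 (276) for daily variation in short days, long days, advance and delay, 85 to 1456 (782) for course, 18 to 334 (40) for advance light and 56 to 2632 (1112) for evening light.

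Replicate numbers were not taken to pair the arrays, since the labels do not say so and not every pair of same-numbered arrays deviated together: deviations of same-numbered arrays had median correlations of 0.033 in short days, 0.238 in long days, 0.070 in advance and 0.273 in delay, with single pairs down to -0.187, although all 15 long-day pairs lay at 0.087 to 0.401. Under a replicate block within each condition 82 of 85 results for single genes kept their side of the threshold. The other 3 passed under it: Gjb6 in course (adjusted p = 0.04962), Vim in evening light (0.03383) and Gfap in advance minus delay (0.04452). Calls over all genes rose under it, to 2838 for daily variation in short days, 1265 for course and 2389 for evening light. With 2 arrays a group, small changes cannot be seen.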
